A study of Homo sapiens with 27 samples.

Results

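The 7 CDK inhibitor genes CDKN1A, CDKN1B, CDKN1C, CDKN2A, CDKN2B, CDKN2C and CDKN2D and the 3 D cyclin genes CCND1, CCND2 and CCND3 were followed in uveal melanoma cells under prolonged inhibition of the focal adhesion kinase FAK. They are 10 of the 61533 genes in the deposited count table and were picked by their symbols, together with a readout: CDKN1C was lower with the inhibitor on every day. For that reason the CDKN1C values under the inhibitor are given as a description, without a test. The cells were 92.1, an established line from a uveal melanoma (a melanoma of the eye) that carries a *GNAQ* mutation, so every group is the same line and the same genotype. They were kept in DMSO, the solvent, or in VS-4718 (FAKi), a FAK inhibitor, at 100 nM, with medium and treatment renewed every 72 h. RNA was sequenced from DMSO at day 0 and from DMSO and FAKi at days 3, 7, 14 and 21, which makes 27 libraries in 9 groups of 3 replicates. The methods speak of both triplicate plating and biological repeats, and the labels do not say which of these a replicate number stands for, so p-values measure only the spread between these libraries.

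Cells pass from G1 into S phase when cyclin-dependent kinases (CDKs) phosphorylate the retinoblastoma protein RB and E2F transcription factors are released. The D cyclins, products of CCND1, CCND2 and CCND3, bind and activate CDK4 and CDK6 and link growth signals from receptors, adhesion sites and the ERK pathway to this switch. The INK4 inhibitors, p16 and its relatives encoded by CDKN2A, CDKN2B, CDKN2C and CDKN2D, bind CDK4 and CDK6 and keep D cyclins from activating them. The Cip/Kip inhibitors p21 (CDKN1A), p27 (CDKN1B) and p57 (CDKN1C) bind cyclin-CDK complexes more broadly and act strongly on CDK2. In melanocytic tumours CDKN2A is known as a brake that can be lost, and CCND1 as a gene that mitogenic signals switch on.

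All 10 genes were counted over the exons of a single transcript each, in hg38. CDKN1C (ENSG00000129757.15) lies on chr11:2883218-2885765, minus strand, in 11p15.5, a domain of imprinted genes in which CDKN1C is expressed mainly from the maternal copy. CCND1 (ENSG00000110092.4) lies on the long arm of the same chromosome at chr11:69641156-69654474, plus strand. CDKN2A and CDKN2B are neighbours in 9p21, at chr9:21967752-21994392 and chr9:22002903-22009305, both on the minus strand. The counted CDKN2A transcript begins with the first exon of p14ARF at chr9:21994139-21994392, and 75.86% of its 1052 exon bases also belong to the p16 transcript, so reads for these 2 products of CDKN2A cannot be told apart. Exons of CDKN2A overlap the antisense gene CDKN2B-AS1 over 24% of their bases, those of CDKN2C an antisense gene over 21.2% and those of CCND1 the antisense gene LTO1 over 11.7%. The strand setting of the counting is not given, so the values of these 3 genes may hold reads of their antisense partners. The counted exons of CDKN1A, CDKN1B, CDKN1C, CDKN2B, CDKN2D and CCND3 overlapped no exon of another gene, although CDKN2B lies within the span of CDKN2B-AS1.

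Of the 10 genes, 7 had a RefSeq promoter window here (GRCh38.p14). Shown are the 250 bases before the start of CDKN1A, CDKN2B and CDKN2D, the 3 inhibitors that passed the test for the mean FAKi effect. Capitals mark the GC box GGGCGG, the letters bound by Sp1-type factors, read on both strands.
CDKN1A, chr6:36678464-36678713, plus strand: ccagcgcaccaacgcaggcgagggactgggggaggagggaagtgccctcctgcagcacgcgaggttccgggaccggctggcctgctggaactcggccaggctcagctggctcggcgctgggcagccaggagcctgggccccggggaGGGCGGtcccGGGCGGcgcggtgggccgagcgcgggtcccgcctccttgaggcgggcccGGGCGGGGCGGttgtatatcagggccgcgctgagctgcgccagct
CDKN2B, chr9:22009306-22009555, minus strand: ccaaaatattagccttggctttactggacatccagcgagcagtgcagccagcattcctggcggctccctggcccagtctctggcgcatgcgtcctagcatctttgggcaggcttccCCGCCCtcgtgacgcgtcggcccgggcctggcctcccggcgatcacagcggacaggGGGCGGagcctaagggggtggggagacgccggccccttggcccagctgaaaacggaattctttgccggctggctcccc
CDKN2D, chr19:10568980-10569229, minus strand: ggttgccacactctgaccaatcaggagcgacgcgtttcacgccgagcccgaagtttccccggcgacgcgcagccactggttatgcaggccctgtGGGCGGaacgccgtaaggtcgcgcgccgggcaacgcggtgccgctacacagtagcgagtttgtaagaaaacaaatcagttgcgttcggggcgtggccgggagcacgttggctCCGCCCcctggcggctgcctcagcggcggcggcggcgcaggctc

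The GC box was found 4 times in the CDKN1A window, where the last 2 copies share 1 base, and 2 times each in the CDKN2B and CDKN2D windows. It stood in 42.6% of the 35116 RefSeq windows of that length, so its presence is common. The letters GGAATG, the core read by TEAD factors, occurred 1 time, in the CDKN2B window (cattcc on the printed strand), against 11.9% of all windows. The palindrome CACGTG and the AP-1 letters TGACTCA were in none of these 3 windows, against 6.34% and 4.2% of all windows.

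Libraries held between 12161994 and 43651551 counts. Between them 9 of 27 were closest, by log2 CPM over 16981 genes, to a library of another group. The 3 with the largest mean distance to their own replicates are called the libraries that stood apart. Of these, DMSO day 3 replicate 1 was nearest to a DMSO day 0 library, FAKi day 7 replicate 1 to a FAKi day 14 library and DMSO day 21 replicate 3 to a DMSO day 3 library. DMSO day 3 replicates 2 and 3 were in turn both nearest to DMSO day 21 replicate 3. All 7 melanocyte markers were expressed, with PMEL at a mean of 4939 CPM, while KRT5 was at 0 in every library and PTPRC, CD3E, COL3A1, DCN and EPCAM averaged under 0.03 CPM. Other members of these lists were expressed: 2 of 5 fibroblast, 1 of 4 leukocyte and 2 of 4 epithelial markers were over 1 CPM. In DMSO day 0 the summed leukocyte markers were at 98.2 to 108 CPM and the fibroblast markers at 9.41 to 11.6 CPM. Mitochondrial genes took 5.49 to 9.75% of counts in DMSO day 21 and 10.7 to 11.2% in FAKi day 21, and 22.0 to 27% in DMSO day 14. Summed epithelial markers, which here were KRT8 and KRT18, were at 35.5 to 52.5 CPM in DMSO day 21 and 11.5 to 14.2 CPM in FAKi day 21. The counted KRT8 transcript lies within the span of KRT18 on the opposite strand, so their reads may be mixed. The part of the mitochondrial and epithelial shifts in the results below was not tested.

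Per kilobase of transcript, CCND1 had the highest level, at a mean of 57.2 CPM per kb over the 27 libraries, followed by CDKN2A at 38.8, CDKN1A at 24.3, CDKN1B at 20.4 and CCND3 at 15.1 CPM per kb. Lower were CDKN1C at 6.50, CDKN2D at 5.62, CDKN2C at 5.11 and CDKN2B at 1.21 CPM per kb. Most neighbours in this order had overlapping ranges. CDKN1A was above CDKN1B in 16 of 27 libraries and CDKN1C above CDKN2D in 14 of 27, so the order of these pairs varied between libraries. These counts pool all 9 groups, and the order within a group was not tested. CDKN2C was above CDKN2B in all 27 libraries, with ranges that did not overlap. CCND2 was close to silent: it had 19 counts in all, 10 of them in DMSO day 14 replicate 2, and none in 20 libraries, where a count of 0 allows up to 0.0851 to 0.223 CPM. It did not reach the minimum of 20 counts in any comparison, so 9 of the 10 genes entered the fits.

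CDKN1C was the most variable of the expressed genes, with a 24.8-fold range from 1.63 to 40.3 CPM, against 1.51-fold for CDKN1B, the steadiest. The CDKN1C range includes the FAKi fall it was chosen for, and its DMSO libraries alone ran from 5.07 to 40.3 CPM. In scaled CPM, the day 0 DMSO libraries held 13, 12.7 and 10.4. At day 3 the DMSO values were 11.4, 19.1 and 24.5 CPM, and FAKi gave 8.52, 8.09 and 9.33 CPM. At day 7 they were 17.2, 14.4 and 15.6 CPM, beside 1.99, 6.93 and 6.34 CPM with FAKi. Every FAKi library was below every DMSO library on both days. By day 14 the DMSO libraries had come down to 7.07, 5.07 and 7.81 CPM and the FAKi libraries to 2.34, 1.63 and 2.49 CPM. At day 21 both were high again, with 40.3, 36.3 and 24.5 CPM in DMSO and 10.9, 11.9 and 8.25 CPM in FAKi. The groups did not overlap on any day, a pattern that the choice of CDKN1C used and that 0.435% of 21147 genes shared in this direction.

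Set side by side, the CDKN1C log2 fold changes of FAKi against DMSO were -1.06, -1.62, -1.63 and -1.68 at days 3, 7, 14 and 21, or 2.09-, 3.08-, 3.09- and 3.21-fold lower. The mean over days was -1.5 (SE 0.155), a description of a gene chosen for this fall. Leaving out DMSO day 3 replicate 1, which resembled day 0, gave -1.31 at day 3. Without FAKi day 7 replicate 1, which resembled day 14, the day 7 value was -1.24. The FAKi level at day 21, 10.4 ± 1.89 CPM (SD, n = 3), was close to the DMSO level at day 0, 12 ± 1.40 CPM (SD, n = 3). In bulk RNA, fewer cells that use a gene and less RNA per cell cannot be told apart.

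**Figure D1:**
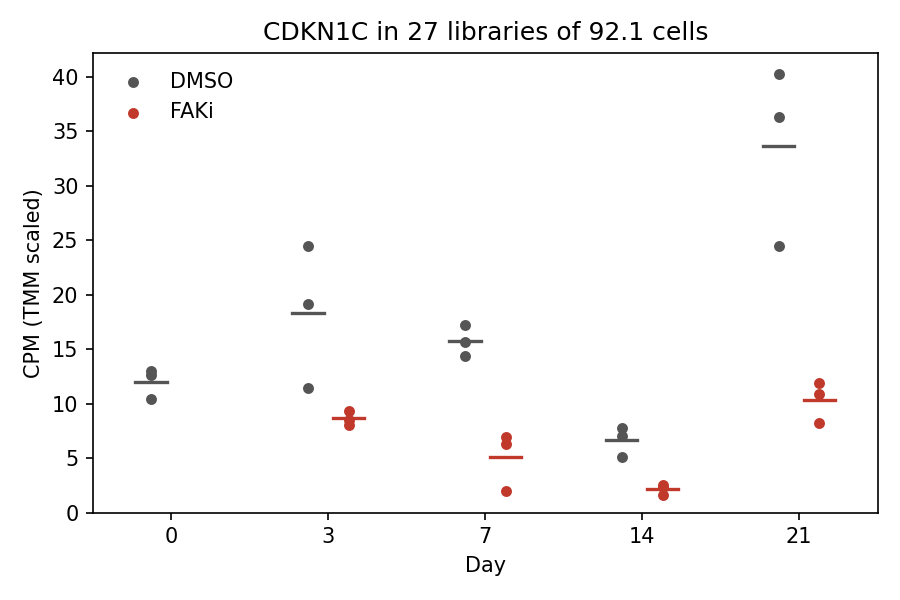
CDKN1C level in CPM, scaled by TMM (y axis), by day (x axis), with 1 point per library, DMSO in grey, FAKi in red and short lines at the group means. FAKi points lie below the DMSO points of the same day on all 4 days, and DMSO ranges from 5.07 CPM at day 14 to 40.3 CPM at day 21.

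Of the 8 other expressed genes, none passed both thresholds, 0.05 for the adjusted p and a log2 difference beyond 1 in either direction, at day 3, where 0% of all genes tested by edgeR did, at day 7 (0.0269% of all genes) or at day 14 (1.66%). At day 21 a single gene did, CDKN2D, against 5.28% of all genes (2.71% lower). DESeq2 gave the same counts of 0, 0, 0 and 1. At an unadjusted p under 0.05 the counts on the 4 days were 2, 2, 4 and 5 of 8, beside 23.8%, 8.77%, 24.6% and 32.6% of all genes. Libraries of the 2 treatments did not overlap for 4, 3, 3 and 6 of the 8 genes on these days, where 31%, 16.8%, 29% and 35.3% of all genes did not. At day 3 CDKN2C passed once DMSO day 3 replicate 1 was left out, with a log2 fold change of 1.02 and an adjusted p of 0.00302. At day 14 CCND3 passed without DMSO day 14 replicate 1 (1.11, adjusted p = 3.44e-05) and without FAKi day 14 replicate 3 (1.01, adjusted p = 0.00186).

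Over the 4 days together, a mean FAKi effect was fitted on 24 libraries, and here the threshold was an adjusted p of 0.05 alone. In it 4 of the 8 genes passed, CCND1, CDKN1A, CDKN2B and CDKN2D, all of them lower with FAKi, where 15.7% of all genes passed and 8.7% were lower. The median log2 difference of the 8 genes was -0.25, beside 0.01 over all genes. CDKN2D lost its call without any of 5 libraries (FAKi day 3 replicate 3, DMSO day 14 replicate 1, DMSO day 21 replicates 1 and 2, and FAKi day 21 replicate 3), with adjusted p from 0.0516 to 0.0612. CCND3 gained one without FAKi day 7 replicate 3 (0.27, adjusted p = 0.0475) and CDKN2C without FAKi day 7 replicate 2 (0.41, adjusted p = 0.0447).

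**Figure D2:**
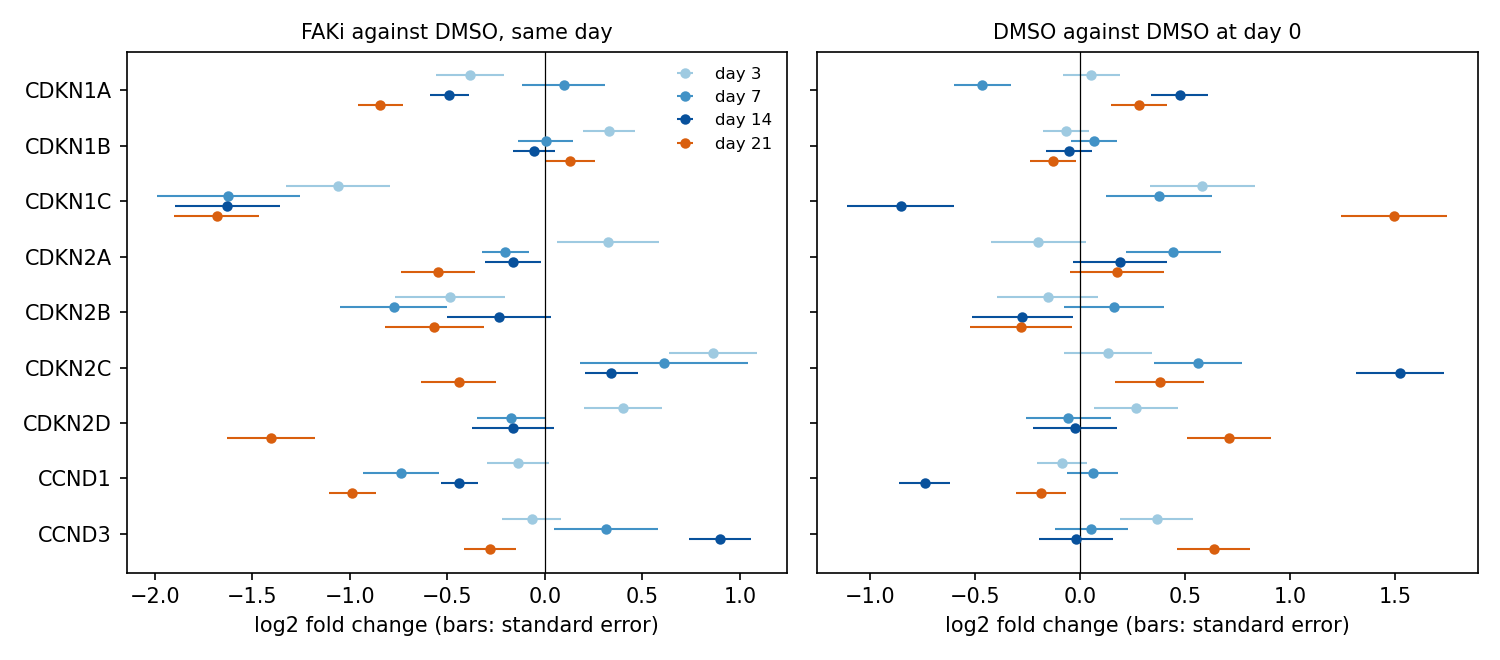
log2 fold changes (x axis, bars are standard errors) of the 9 fitted genes (y axis), for FAKi against DMSO on the same day (left) and for DMSO against DMSO at day 0 (right), coloured by day. With FAKi, CDKN1C lies between -1.06 and -1.68 on all days and CCND1 moves from -0.14 at day 3 to -0.99 at day 21, whereas CDKN1B stays between -0.06 and 0.33. CDKN1C was chosen for its fall with FAKi, so its bars describe and do not test it.

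Among the Cip/Kip genes, CDKN1A, whose product p21 is the classic p53-induced CDK inhibitor, passed the p threshold with FAKi at days 14 and 21. At day 3 its DMSO libraries held 74.3, 53.1 and 54.6 CPM and its FAKi libraries 52.2, 42.8 and 42.1 CPM, without overlap and without passing the test (log2 fold change -0.39, SE 0.174, adjusted p = 0.212). At day 14 its DMSO libraries held 82.6, 75.6 and 80.9 CPM and its FAKi libraries 57.6, 58.4 and 54.4 CPM. At day 21 the values were 74.1, 67.3 and 66.4 CPM against 39, 38.3 and 36.7 CPM. On neither of these days did the groups overlap. The log2 fold change was -0.49 (SE 0.100) at day 14 and -0.84 (SE 0.114) at day 21, with edgeR adjusted p of 0.00227 and 0.00666, past the p threshold and short of the fold threshold. By the adjusted p alone 12.4% of all genes passed at day 14 and 11.6% at day 21. At day 7 the groups overlapped, from 37.1 to 46.8 CPM in DMSO and from 32.1 to 59.0 CPM in FAKi. The mean effect of CDKN1A was -0.41 (SE 0.083, adjusted p = 0.00167).

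CDKN1B, which encodes the quiescence-associated inhibitor p27, did not pass the test on any day or in the mean effect. It was at 56.8, 61.8 and 56.8 CPM in FAKi and 49.8, 46.1 and 46.0 CPM in DMSO at day 3, where the groups did not overlap (log2 fold change 0.33, adjusted p = 0.182). From day 7 on they overlapped, and the largest log2 difference of those days was 0.13, at day 21. CDKN1A and CDKN1B levels ran in opposite senses across the 27 libraries (Pearson r of log2 CPM = -0.51, libraries shared by both genes).

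Summed over the 3 Cip/Kip genes per kilobase, the signal at day 21 was 66.5 ± 5.11 CPM per kb in DMSO and 42.0 ± 0.583 in FAKi (SD, n = 3 each). The makeup of that sum differed as well. CDKN1C took 26.1% ± 4.81 of it in DMSO and 12.8% ± 2.27 in FAKi at day 21, and 5.92% ± 1.13 and 2.5% ± 0.627 at day 14 (SD, n = 3 each). CDKN1B took 27.8% ± 3.64 in DMSO and 47.2% ± 3.02 in FAKi at day 21. These shares include CDKN1C, which was chosen for its change, and were not tested.

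Among the INK4 genes, CDKN2D, which encodes p19INK4D, had the largest log2 difference of the 8 genes between FAKi and DMSO on a single day. Its DMSO libraries at day 21 held 13.3, 13.9 and 8.84 CPM and its FAKi libraries 5.15, 4.65 and 3.65 CPM. The groups did not overlap, and the lowest DMSO value came from replicate 3, the library that resembled DMSO day 3. The log2 fold change was -1.40 (SE 0.225), a 2.64-fold lower level with an adjusted p of 0.011. This call was lost without DMSO day 21 replicate 1 (adjusted p = 0.0504), FAKi day 21 replicate 2 (0.076) or FAKi day 21 replicate 3 (0.0715). On earlier days the groups overlapped, with 9.53 to 14.3 CPM in FAKi and 8.16 to 10.3 CPM in DMSO at day 3. The mean effect was -0.34 (SE 0.103, adjusted p = 0.0264).

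CDKN2B, the gene of the TGF-beta-responsive inhibitor p15INK4B, was the lowest of the inhibitors and had a negative log2 difference with FAKi on all 4 days. At day 7 the DMSO libraries held 8.09, 5.25 and 6.36 CPM and the FAKi libraries 4.47, 4.46 and 2.47 CPM. Groups did not overlap at days 3 and 7 and overlapped at days 14 and 21. No single day passed, with log2 differences between -0.24 and -0.78, while the mean effect did (-0.52, SE 0.143, adjusted p = 0.0147).

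CDKN2A was at 23.1 to 55.6 CPM over all libraries and made up 70.2 to 82.1% of the summed signal of the INK4 genes per kilobase in group means. Reads of p16 and p14ARF were not told apart and antisense reads may be included, so this is not the share of p16 alone. At day 21 DMSO held 53.2, 44.1 and 31.3 CPM and FAKi 30.1, 30.7 and 25.8 CPM, without overlap and short of the p threshold (log2 fold change -0.55, adjusted p = 0.0892). With the replicate number as a block the day 21 value was -0.52 with an adjusted p of 0.0137, past the p threshold and short of the fold threshold. Its mean effect was -0.15 (adjusted p = 0.355).

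CDKN2C, which encodes p18INK4C and is itself an E2F target in cycling cells, differed in the other direction early on. At day 3 it was at 13.3, 20.7 and 14.0 CPM in FAKi and 10.8, 7.47 and 8.52 CPM in DMSO (log2 fold change 0.86, SE 0.225, adjusted p = 0.0984). At day 21 the FAKi libraries held 7.52, 7.68 and 7.27 CPM and the DMSO libraries 11, 12.2 and 7.87 CPM (-0.44, adjusted p = 0.15). The groups did not overlap on either day and neither difference passed. By DESeq2 the day 3 value was 0.87 with an adjusted p of 0.0156, past the p threshold and short of the fold threshold. FAKi day 7 replicate 1 stood at 33.4 CPM beside 9.81 and 11.3 CPM in the other FAKi libraries of that day, within the 24.2 to 34.0 CPM of FAKi at day 14.

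**Figure D3:**
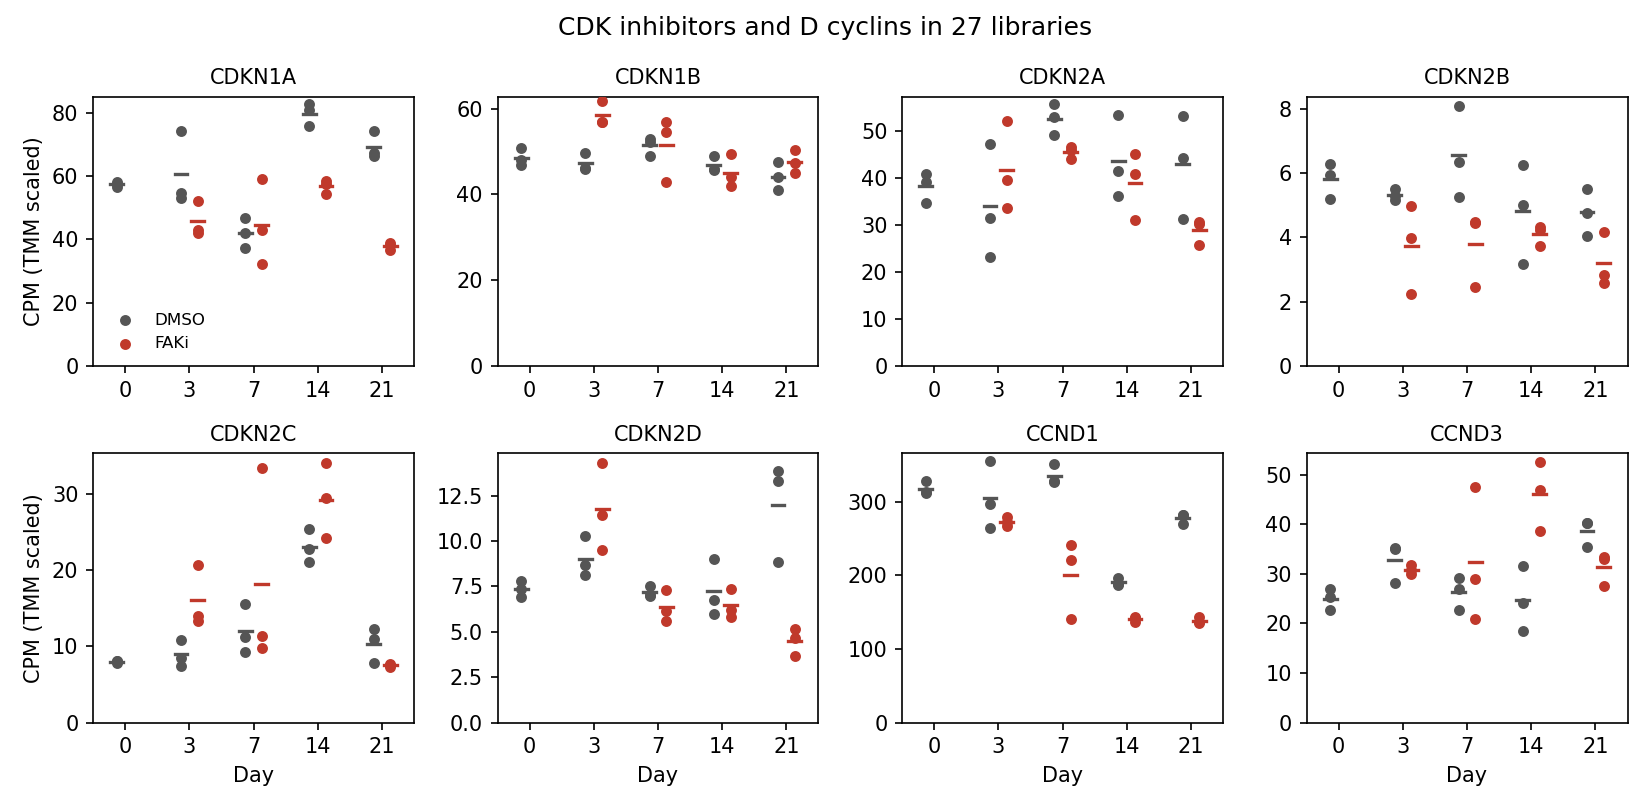
Levels in CPM, scaled by TMM (y axes, each from 0), of 8 genes by day (x axes), with 1 point per library, DMSO in grey, FAKi in red and short lines at the group means. CCND1 and CDKN1A are lower in all FAKi libraries than in all DMSO libraries at days 14 and 21, CCND3 is higher at day 14, and CDKN2D is lower at day 21.

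CCND1, the D cyclin gene with the highest level, was lower in FAKi and rested on 2517 to 15660 counts per library. At day 7 the DMSO libraries held 351, 327 and 327 CPM and the FAKi libraries 140, 221 and 241 CPM. At day 14 the values were 189, 197 and 186 CPM against 142, 143 and 137 CPM. By day 21 they were 269, 282 and 282 CPM against 135, 136 and 143 CPM. Groups did not overlap on these 3 days. At day 3 they did, with 264 to 355 CPM in DMSO and 267 to 280 CPM in FAKi. The log2 fold change was -0.14 at day 3 (adjusted p = 0.615), -0.74 at day 7 (0.318), -0.44 at day 14 (0.00309) and -0.99 at day 21 (0.0054, or 1.98-fold lower). DESeq2 gave the day 7 difference an adjusted p of 0.0493, short of the fold threshold. The mean effect, -0.58 (SE 0.0748), had the smallest adjusted p of the 8 genes, 9.46e-06. At day 21 CCND1 also passed the fold threshold without DMSO day 21 replicate 1 (-1.02, adjusted p = 0.0239) or FAKi day 21 replicate 3 (-1.01, adjusted p = 0.0479).

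CCND3, the other expressed D cyclin gene, went the opposite way at day 14. Its FAKi libraries held 46.8, 52.7 and 38.7 CPM and its DMSO libraries 31.6, 24 and 18.5 CPM, with no overlap. The log2 fold change was 0.90 (SE 0.157, adjusted p = 0.000547), under the fold threshold. At day 21 the sign was reversed, with 33.1, 33.4 and 27.5 CPM in FAKi and 40.2, 40.3 and 35.5 CPM in DMSO, a difference that did not pass (-0.28, adjusted p = 0.179). FAKi day 7 replicate 1, the library near day 14, was the highest of its group at 47.6 CPM beside 29.0 and 20.8 CPM. The mean effect was 0.21 (adjusted p = 0.178).

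In the D cyclin signal per kilobase, CCND1 took 86.4% ± 1.33 at day 0 (SD, n = 3). At day 14 its share was 79.6% ± 4.33 in DMSO and 60.7% ± 3.15 in FAKi, and at day 21 it was 78.3% ± 1.51 and 68.9% ± 2.98 (SD, n = 3 each). Nearly all of the rest was CCND3. The sum of the 3 genes was similar at day 14, at 56.7 ± 3.54 CPM per kb in DMSO and 55.0 ± 4.09 in FAKi, and lower with FAKi at day 21, at 83.9 ± 1.49 and 47.4 ± 0.580. Shares and sums were not tested.

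**Figure D4:**
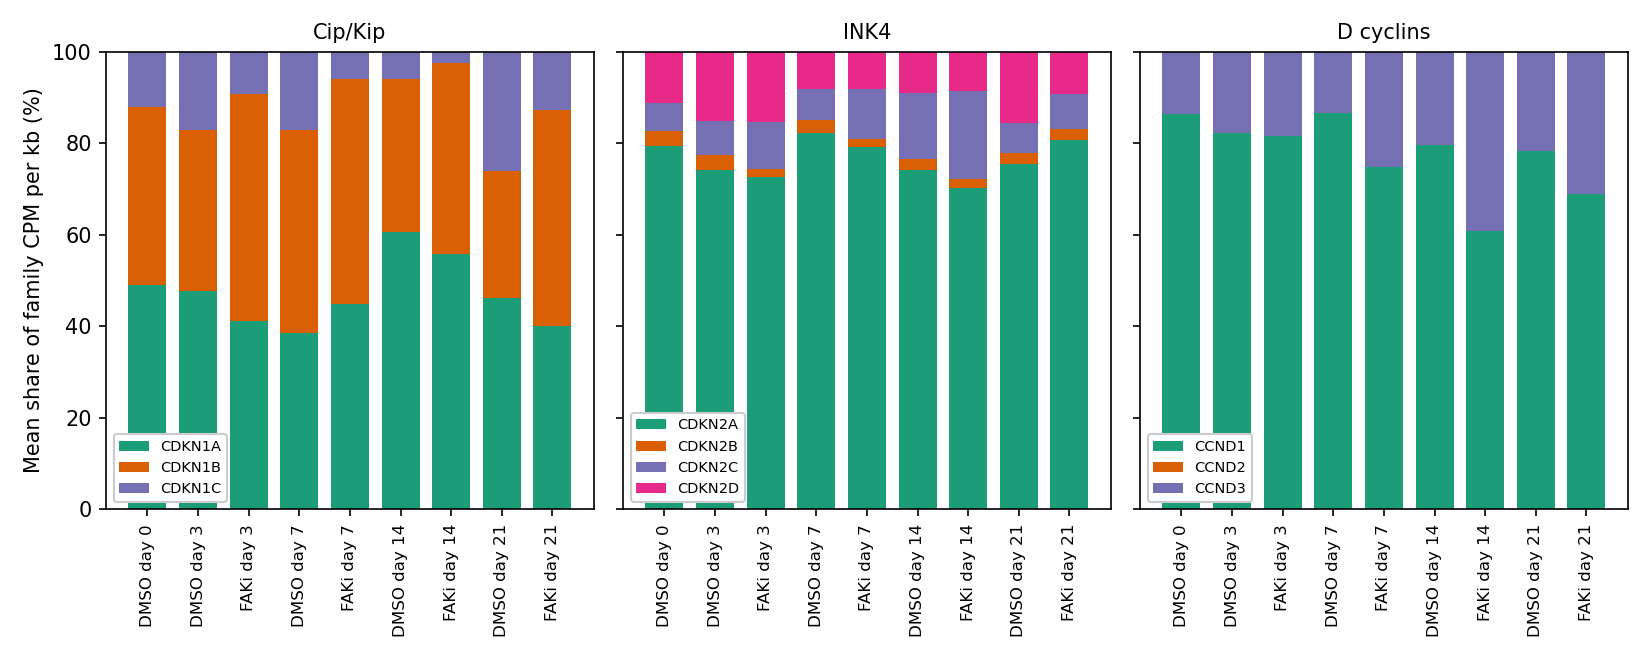
Mean share of each gene in its family's summed CPM per kb (y axis, %), by group (x axis), for the Cip/Kip genes, the INK4 genes and the D cyclins. The CCND1 share is lowest in FAKi day 14 at 60.7%, and the CDKN1C share is highest in DMSO day 21 at 26.1%.

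The FAKi effect was next compared between the first and the last treated day. It differed for 2 of the 8 genes, CDKN2D and CCND1, against 3.59% of all genes, and it became lower for both (2.18% of all genes). For CDKN2D the change was -1.80 on the log2 scale (SE 0.293, adjusted p = 0.000825), from 0.40 at day 3 to -1.40 at day 21. For CCND1 it was -0.85 (SE 0.211, adjusted p = 0.0229). Over all genes the median change was 0.12. The CCND1 call was lost without any of 5 libraries (DMSO day 3 replicates 2 and 3, FAKi day 3 replicates 2 and 3, and FAKi day 21 replicate 2), with adjusted p from 0.054 to 0.063. CDKN2A passed without DMSO day 3 replicate 1 (-1.19, adjusted p = 0.0103) or DMSO day 21 replicate 3 (-1.04, adjusted p = 0.0266), and CDKN2C without FAKi day 7 replicate 1 (-1.30, adjusted p = 0.0073) or DMSO day 21 replicate 3 (-1.45, adjusted p = 0.0431). Without all 3 libraries that stood apart, 5 genes passed, with CDKN1A (-0.65), CDKN2A (-1.36) and CDKN2C (-1.61) added, all of them lower, where 14.7% of all genes passed in that fit and 7.23% were lower.

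Levels also moved with time in DMSO alone. These 4 comparisons share the day 0 libraries and were fitted on the 15 DMSO libraries, and CDKN1C is given in them without a test, since its later DMSO libraries entered its choice. At day 3 and day 7 none of the 8 other genes passed (0% and 0.157% of all genes), with 0 and 2 at an unadjusted p under 0.05 (10.1% and 3.69% of all genes) and 0 by DESeq2. At day 14 there were 3 of 8, against 15.4% of all genes. CDKN2C rose 2.88-fold, from 7.79 to 8.13 CPM at day 0 to 21.0 to 25.4 CPM (log2 fold change 1.53, SE 0.210, adjusted p = 0.000177). CCND1 fell by 0.74 on the log2 scale (adjusted p = 0.000715), and CDKN1A rose by 0.47 (adjusted p = 0.025). The CDKN1A call was lost without any of 5 libraries, the 3 of day 0 and day 14 replicates 1 and 3, with adjusted p from 0.0603 to 0.0946, and without a count filter (0.0518).

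At day 21 in DMSO 2 of the 8 genes passed, both higher than at day 0, where 38.4% of all genes passed and 20.3% were higher. CDKN2D rose by 0.71 (adjusted p = 0.0103) and CCND3 by 0.64 (adjusted p = 0.00901). CCND3 lost its call without DMSO day 0 replicate 1 (adjusted p = 0.0619), and CDKN2D without replicate 2 of day 0 (0.0556), or replicate 1 (0.0522) or 2 (0.0541) of day 21. CDKN1B did not pass on any day, with log2 differences between -0.13 and 0.07. The log2 differences of CDKN1C from day 0 were 0.58, 0.38, -0.85 and 1.5 at days 3, 7, 14 and 21.

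The genes around CDKN1C in 11p15.5 were followed with it. Of 16 listed neighbours 13 passed the count minimum, and 7 of these fell in the mean FAKi effect, with none higher, where 8.7% of all genes were lower. They were KCNQ1, a potassium channel gene (-1.29, adjusted p = 0.00018), CARS1, a cysteinyl-tRNA synthetase gene (-0.71, 0.000997), ASCL2, a transcription factor gene (-1.06, 0.0013), CD81, a tetraspanin gene (-0.38, 0.00383), PHLDA2, an imprinted gene best known from placenta (-2.48, 0.00514), the growth factor gene IGF2 (-1.74, 0.00728) and TSSC4 (-0.42, 0.0227). The median of the 13 was -0.38, beside 0.01 over all genes. KCNQ1OT1, the paternally expressed noncoding RNA of the domain, was at -0.03 (adjusted p = 0.938), and NAP1L4, at -0.13, did not pass either. Nor did H19 (-0.34, adjusted p = 0.244), OSBPL5 (0.01), SLC22A18 (-0.20, adjusted p = 0.154) or SLC22A18AS (0.23, adjusted p = 0.707). SLC22A18 and SLC22A18AS have the starts nearest to that of CDKN1C, at 16.7 and 17.7 kb. Several of these genes are barely expressed: PHLDA2 averaged 2.43 CPM in DMSO day 21 and 0.383 CPM in FAKi day 21, and had no count in any FAKi day 14 library. With at least 10 counts required in every library, 3 neighbours passed, where 28.6% of all genes passed in that fit and 15% were lower. The number of neighbours that met this minimum is not given here. KCNQ1 and KCNQ1OT1 overlap on opposite strands, so their reads may be mixed.

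By day, no neighbour passed at day 3 or day 7 (0% and 0.0269% of all genes). CARS1 passed at day 14 (-1.93, adjusted p = 2.45e-10), when 1.04% of all genes were lower. At day 21, 3 of 13 passed, when 2.71% of all genes were lower. They were ASCL2 (-1.61, adjusted p = 0.033), PHLDA2 (-2.70, adjusted p = 0.019) and H19 (-2.07, adjusted p = 0.0302). H19, the maternally expressed noncoding RNA next to IGF2, was also the only neighbour whose FAKi effect changed from day 3 to day 21 (-3.11, adjusted p = 0.00291). That change was lower for 2.18% of all genes. In DMSO alone, 4 neighbours fell from day 0 to day 14 (CD81, IGF2, PHLDA2 and SLC22A18) and NAP1L4 rose, beside 8.04% of all genes that fell and 7.34% that rose. At day 21 in DMSO 6 rose, beside 20.3% of all genes, and none fell, namely ASCL2, CD81, NAP1L4, PHLDA2, SLC22A18 and TSSC4. Of the 3 neighbours of CDKN2A and CDKN2B in 9p21, DMRTA1 fell in the mean FAKi effect (-1.26, adjusted p = 0.0132), beside 8.7% of all genes. CDKN2B-AS1 fell in DMSO from day 0 to day 14 (-1.94, adjusted p = 0.0457), beside 8.04% of all genes.

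**Figure D5:**
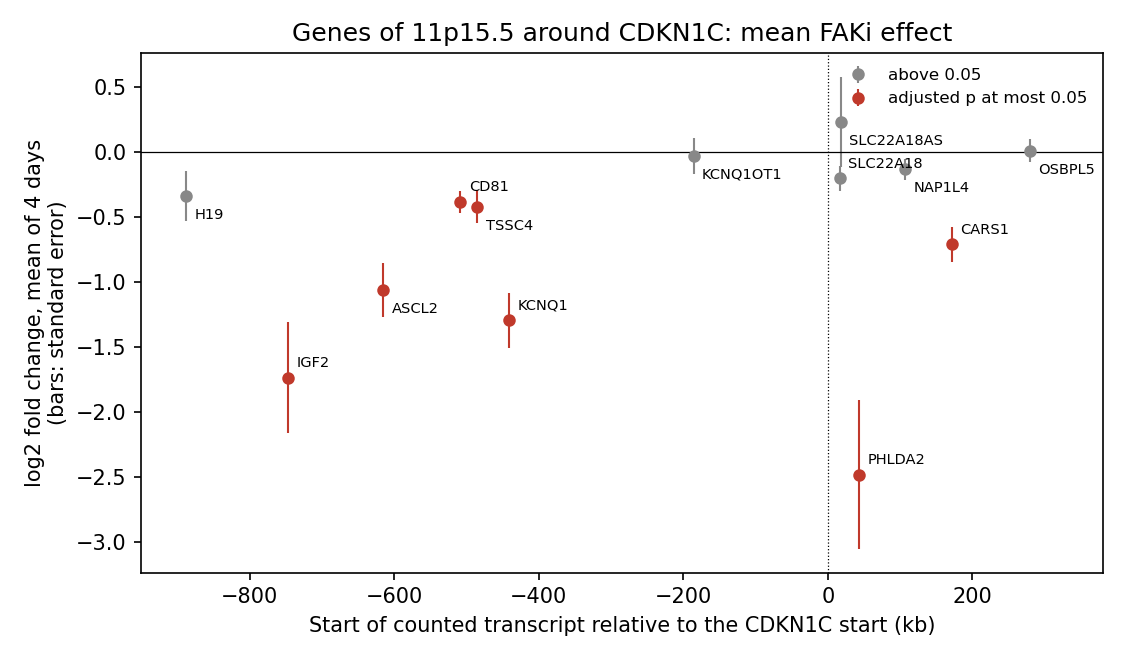
Mean FAKi effect as log2 fold change (y axis, bars are standard errors) of 13 genes of 11p15.5, by the distance of their start from the CDKN1C start (x axis, kb), in red where the adjusted p was at most 0.05. The 7 red points, from CD81 at -0.38 to PHLDA2 at -2.48, lie on both sides of CDKN1C. The points nearest to CDKN1C, SLC22A18 and SLC22A18AS, are not red.

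Across the 27 libraries the gene whose log2 CPM ran most like CDKN1C, among 16981 genes with a mean of at least 1 CPM, was ALDH2, a mitochondrial aldehyde dehydrogenase gene (Pearson r = 0.957). Next came ENSG00000264772 (0.951), SNRPN, an imprinted gene of another chromosome (0.948), FZD9, a Wnt receptor gene (0.948), and TSPAN33, a tetraspanin gene (0.946). The span of ENSG00000264772 overlaps that of CD68 on the same strand, so their reads may be mixed. In ALDH2 the groups went from 19.9 ± 0.400 CPM in FAKi day 14 to 92.2 ± 9.68 CPM in DMSO day 21, and in FZD9 from 3.58 ± 0.366 to 24.9 ± 5.55 CPM in the same groups (SD, n = 3). Among the CDK inhibitors and D cyclins themselves, CDKN1C ran most with CCND1 (r = 0.67) and most against CDKN2C (r = -0.73). All these points share libraries, days and treatments, so the values are descriptions.

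The partners of these genes at the G1/S switch were counted from a list of 24. In the mean FAKi effect 7 rose and 3 fell, against 6.96% and 8.7% of all genes. CDK2, the kinase that Cip/Kip inhibitors act on, rose by 0.32 (adjusted p = 0.00281), and the E2F genes E2F8, E2F2 and E2F7 rose by 1.03, 0.70 and 0.65 (adjusted p 0.0103, 0.0135 and 0.0188). E2F5 fell by 0.39 (adjusted p = 0.0115) and MDM2, the p53 antagonist gene, by 0.21 (adjusted p = 0.0345). By day, 3 of the 24 passed at day 14, all higher (0.614% of all genes), and 1 at day 21, lower (2.71%). Without the 3 libraries that stood apart, 17 passed in the mean effect, 13 of them higher, where 33% of all genes passed in that fit and 16.9% were higher.

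Genes that mark proliferating cells turned over with time. Of 20, by the adjusted p alone, 17 were higher with FAKi at day 14 (6.35% of all genes) and none lower, while 13 were lower at day 21 (6.32% of all genes) and none higher. The summed level of the 20 genes was 2637 to 2678 CPM in FAKi and 1752 to 1823 CPM in DMSO at day 14, and 803 to 816 CPM and 1205 to 1377 CPM at day 21, without overlap on either day. With the fold threshold added, none passed at day 14 (and none by DESeq2) and 5 passed at day 21, all lower. The FAKi effect became lower from day 3 to day 21 for 12 of the 20 (2.18% of all genes), among them RRM2, a subunit of ribonucleotide reductase (-2.07, adjusted p = 0.00919). In the mean effect 3 of the 20 passed, all higher, a share near the 15.7% of all genes that passed (6.96% higher). They were MKI67, RRM2 and MCM4, at 0.58, 0.53 and 0.51 (adjusted p 0.0171, 0.0203 and 0.026). This mean joins days on which the list went in opposite directions. With the 3 libraries that stood apart left out, 9 of 20 passed in the mean effect, 5 of them higher, beside 33% of all genes, and all 20 in the change from day 3 to day 21, beside 14.7%.

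Of 20 genes that act upstream of the CDK inhibitors, 3 passed in the mean FAKi effect, a share near the 15.7% of all genes. HES1, a Notch target and transcriptional repressor, fell by 0.73 (adjusted p = 0.000692). ID3, an inhibitor of E proteins, and TGFBR2, the type II TGF-beta receptor gene, both rose by 0.50 (adjusted p 0.00367 and 0.00517). The other 17 did not pass, and the median of the list was -0.04.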

How the data were processed

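The authors sequenced poly(A) RNA from stranded libraries and deposited raw counts per gene, made with Trim Galore, FastQC 0.11.8, STAR 2.5.3a and HOMER against hg38 and GENCODE 39, per the labels and the submitters' processing notes. Each gene was counted over the exons of 1 transcript. The strand setting and the handling of reads with several matches are not given in the sources used here. Totals ran from 12161994 to 43651551 counts per library, so counting error is small for most of the genes described and large for those under 1 CPM, and intervals and limits cover counting error only. No column of another sample was present.

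Groups came from the labels, and the title gave day 21 where another label of DMSO day 21 replicate 3 has an additional digit. edgeR 4.0.16 (R 4.3.3) quasi-likelihood tests with TMM scaling were fitted on the deposited counts, on genes with at least 20 counts over the libraries fitted, with Benjamini-Hochberg adjustment over all of them. FAKi was compared with DMSO by day in the 6 libraries of that day, and the mean effect and the change from day 3 to day 21 in 24 libraries. DMSO days were compared with day 0 in 15 libraries. Standard errors are the absolute log2 fold change over the root of F. CPM were scaled by TMM over 27 libraries. Level patterns were compared by Pearson's r of log2 CPM with a prior count of 2, and the 5 genes with the highest r were named. All 10 genes are named, and of each list the genes that passed in the mean effect, at most the 6 with the smallest p, or the gene with the smallest p where none passed, and genes of the neighbour lists that passed in any comparison. KCNQ1OT1, SLC22A18AS, OSBPL5 and the markers at or near 0 were named after their values were seen. 1 marker gene is not reported here. CDKN1C was planned as a tested gene in the DMSO comparisons and is given there without a test, since its DMSO values entered its choice. The genes and the lists were chosen with earlier results of these data known.

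DESeq2 1.42.0, other scalings, count filters, call rules, a replicate block, 1 fit of all libraries and leaving out single libraries were alternatives. Leaving out mitochondrial genes, or the 3 libraries that stood apart, was added after seeing the data. Same-numbered DMSO and FAKi libraries deviated together at day 21 (r 0.461, 0.124 and 0.654) and on no other day, so the numbers were taken to pair libraries at day 21. Replicates 1 and 2 are not told apart there (FAKi 1 with DMSO 2 had r 0.471 and FAKi 2 with DMSO 1 0.168). Only replicate 3 separates, and its DMSO library is among the 3 that stood apart. The main day 21 tests do not use this pairing, which enters only through the replicate block. Simulated data held a log2 fold of 2 in 200 genes. Of these, 177 were recovered for FAKi at day 21, with 11 false calls, and 199 for the mean effect, with 13. The CDK inhibitor and D cyclin genes that passed differed by less. CDKN2D was at -1.40 at day 21, and the mean effects ran from -0.34 for CDKN2D to -0.58 for CCND1. The recovery therefore does not show how often differences of that size would be found.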

Additional observations from a re-analysis of the deposited data

Results flagged for a closer look

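The FAKi effect differed between day 3 and day 21, by edgeR's test of the difference itself, for CCND1 (-0.85 on the log2 scale, adjusted p = 0.0229) and for CDKN2D (-1.80, adjusted p = 0.000825). CCND1 was at 267 to 280 CPM in FAKi and 264 to 355 CPM in DMSO at day 3, and at 135 to 143 CPM and 269 to 282 CPM at day 21. CDKN2D was at 9.53 to 14.3 CPM in FAKi and 8.16 to 10.3 CPM in DMSO at day 3, and at 3.65 to 5.15 CPM and 8.84 to 13.9 CPM at day 21. Mitochondrial genes took 8.61 to 18.1% of the counts in DMSO day 3 and 16.8 to 18.7% in FAKi day 3, and 5.49 to 9.75% and 10.7 to 11.2% at day 21. Their part in the result was not tested.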

How the results depend on the processing

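No log2 difference of a CDK inhibitor or D cyclin gene changed sign past its threshold under the alternatives run. CDKN1C log2 differences with FAKi ran from -1.31 to -0.80 at day 3 and -1.94 to -1.24 at day 7. They ran from -1.79 to -1.46 at day 14 and -1.87 to -1.54 at day 21. CDKN1C was chosen for lower values with FAKi on every day, so its sign under these alternatives is no support. The number of genes passing moved in these cases. By the adjusted p alone, 3 passed at day 14 and 3 at day 21, and with all 27 libraries in 1 fit 2 passed at day 21. With a log2 fold over 1 required as well, 0 passed in the mean effect, 1 in the change from day 3 to day 21, 1 in DMSO at day 14 and 0 in DMSO at day 21. The change from day 3 to day 21 had 4 without a count filter and 4 with DESeq2. Without the 3 libraries that stood apart it had 5, and DMSO at days 3, 7 and 21 had 1, 1 and 4. Without single libraries the counts ran from 0 to 1 at days 3, 14 and 21 and stayed at 0 at day 7, from 3 to 5 in the mean effect, 1 to 4 in the change, and in DMSO stayed at 0 at days 3 and 7 and ran from 2 to 3 at day 14 and 1 to 2 at day 21. The replicate block gave 1 gene at day 21, CDKN2D, as without it, and 2076 genes of all against 1226. It changed no call of these genes, and CDKN2A at day 21 passed the p threshold but not the fold threshold with it (adjusted p = 0.0137). In the mean effect CDKN2C passed without a count filter (0.33, adjusted p = 0.0149) and CDKN1B without the 3 libraries that stood apart (0.15, adjusted p = 0.0276).

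Over all genes, day 3 went from 0 calls to 1181 without a count filter, 755 with DESeq2 and 802 with all libraries in 1 fit, day 7 from 6 to 220, 102 and 69 and to 0 with the block, day 14 from 388 to 2918 by the adjusted p alone and 632 in 1 fit, and day 21 from 1226 to 1913, 2692 by the adjusted p alone and 1954 in 1 fit. The mean effect went from 4371 to 528 with the fold and 9016 without the libraries apart, the change from 1001 to 1635 without a filter, 1986 with DESeq2, 666 with the fold and 4029 without those libraries. Without single libraries day 21 ran from 52 (FAKi day 21 replicate 2 left out) to 4248 (DMSO day 21 replicate 3 left out). In DMSO, day 3 went from 0 to 920, 225, 140 in 1 fit and 4665 without the libraries apart, day 7 from 41 to 91, 133, 15 with the block, 21 with the fold, 69 and 176, day 14 from 4029 to 1608 with the fold and 7081, and day 21 from 10068 to 5052 with the fold. The cause was not tested.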

Other observations

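Of 7 melanocyte markers 3 rose with FAKi in the mean over days, beside 6.96% of all genes, and 4 did not pass. TYR, the rate-limiting enzyme of melanin synthesis, rose by 0.60 (adjusted p = 1.9e-07), DCT, which acts after it, by 1.02 (adjusted p = 0.000126), and PMEL, the melanosome matrix protein gene, by 0.28 (adjusted p = 0.0181). The keratin genes KRT18 and KRT8 fell by 1.06 and 0.86 (adjusted p 2.53e-05 and 0.000929). The counted KRT8 transcript lies within the span of KRT18 on the opposite strand, so these may not be separate falls. CD68, a lysosomal gene also used to mark macrophages, fell by 0.51 (adjusted p = 0.00191). Its span overlaps that of ENSG00000264772 on the same strand, so it may hold reads of that gene. The leukocyte markers PTPRC and CD3E were at 0 in 20 and 25 of 27 libraries. LUM, a fibroblast marker, was at -0.16 (adjusted p = 0.453).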
